A study of Mus musculus with 6 samples.

Results

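Thrombospondins are secreted, calcium-binding glycoproteins of the extracellular matrix that tie collagens and other matrix proteins to receptors on cells. The products of Thbs1 and Thbs2 assemble as trimers and carry the repeats that bind CD36, whereas those of Thbs3, Thbs4 and Comp assemble as pentamers and lack those repeats. In skeletal muscle and tendon, thrombospondin-4 is known from mouse and fly work as a protein of the fibre surface and of the muscle-tendon junction, and cartilage oligomeric matrix protein, the product of Comp, is abundant in tendon and cartilage. The 5 genes of this family were read in hind limb muscle by every probe set whose annotation names a single family member. These were 8 of 45101 probe sets and 5 of 18193 genes on the array: 2 probe sets for Thbs1, 3 for Thbs2 and 1 each for Thbs3, Thbs4 and Comp. All 8 passed the filter on dim probe sets. A further probe set that carries the symbols of both Thbs1 and Pald1 was not used.

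The study compared 3 mice deficient in the laminin alpha 2 chain with 3 wild type mice, all 4 weeks old, with the RNA of each animal's hind limb muscles on an Affymetrix array of its own. Laminin alpha 2 is the chain through which the muscle basement membrane binds the fibre, and its loss causes muscular dystrophy. The labels name neither the allele, the strain nor the sex of the mice, so the kind of laminin deficiency is not specified further here. Values are linear signal units. Fold changes are given as log2 differences of (signal + 16), deficient minus wild type, and "rose" or "fell" marks an adjusted p under 0.05 by limma over 13104 genes. Lama2 itself read 82, 31.1 and 140.4 in deficient muscle, against 428.7, 415.6 and 326.2 in wild type muscle, and the groups did not overlap.

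Some facts of the arrays bear on the values below. Array medians lay between 20 and 26.1, and precision is limited by there being 6 arrays. All 14 listed markers of skeletal muscle fibres were measured above the filter, with summed signals of 110189 to 147673 in deficient muscle and 141506 to 150642 in wild type muscle. The ratio of the 5 prime to the 3 prime actin control was 0.51 to 0.819 in deficient muscle and 1.04 to 1.15 in wild type muscle. The same ratio for the Gapdh control overlapped between the groups, at 0.886 to 1.15 in deficient and 0.961 to 1.19 in wild type muscle. Keratinocyte and hair follicle markers summed to 277.1 to 435.3 in deficient muscle, and to 3086.4, 1537.3 and 405.3 in wild type replicates 1, 2 and 3. Replicate 3 of each group lacked the Y-linked transcript Eif2s3y, which read 9.1 in deficient and 10.7 in wild type muscle, while the other arrays read 414.6 to 573.7. The part of these differences in the results was not tested, beyond the values given with each gene.

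Thbs4, Thbs3 and Thbs2 rose in laminin-deficient muscle. Thbs4 rose the furthest, 3.54-fold on the fitted scale, followed by Thbs3 at 2.56-fold and Thbs2 at 2.22-fold. Thbs1 and Comp did not pass the test, and in both the groups overlapped. Thus 3 of 5 members rose, 0 fell and 2 did not pass, where 1.25% of all genes tested were called higher. In the same 3 genes every deficient value lay above every wild type value, as held for 12.3% of all genes. All 5 fold changes were positive, as were 52.6% of those over all genes, and the median of the 5 was 1.15 on the log2 scale against 0.0242 for all genes. By limma the number of members that rose was 1, 0 and 3 without deficient replicates 1, 2 and 3, and 1, 1 and 2 without wild type replicates 1, 2 and 3, with 4 at an unadjusted p under 0.05 in the fit that called 0. In muscle as a whole, a change in the number of cells that make a transcript and a change in the transcript per cell cannot be told apart.

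**Figure D1:**
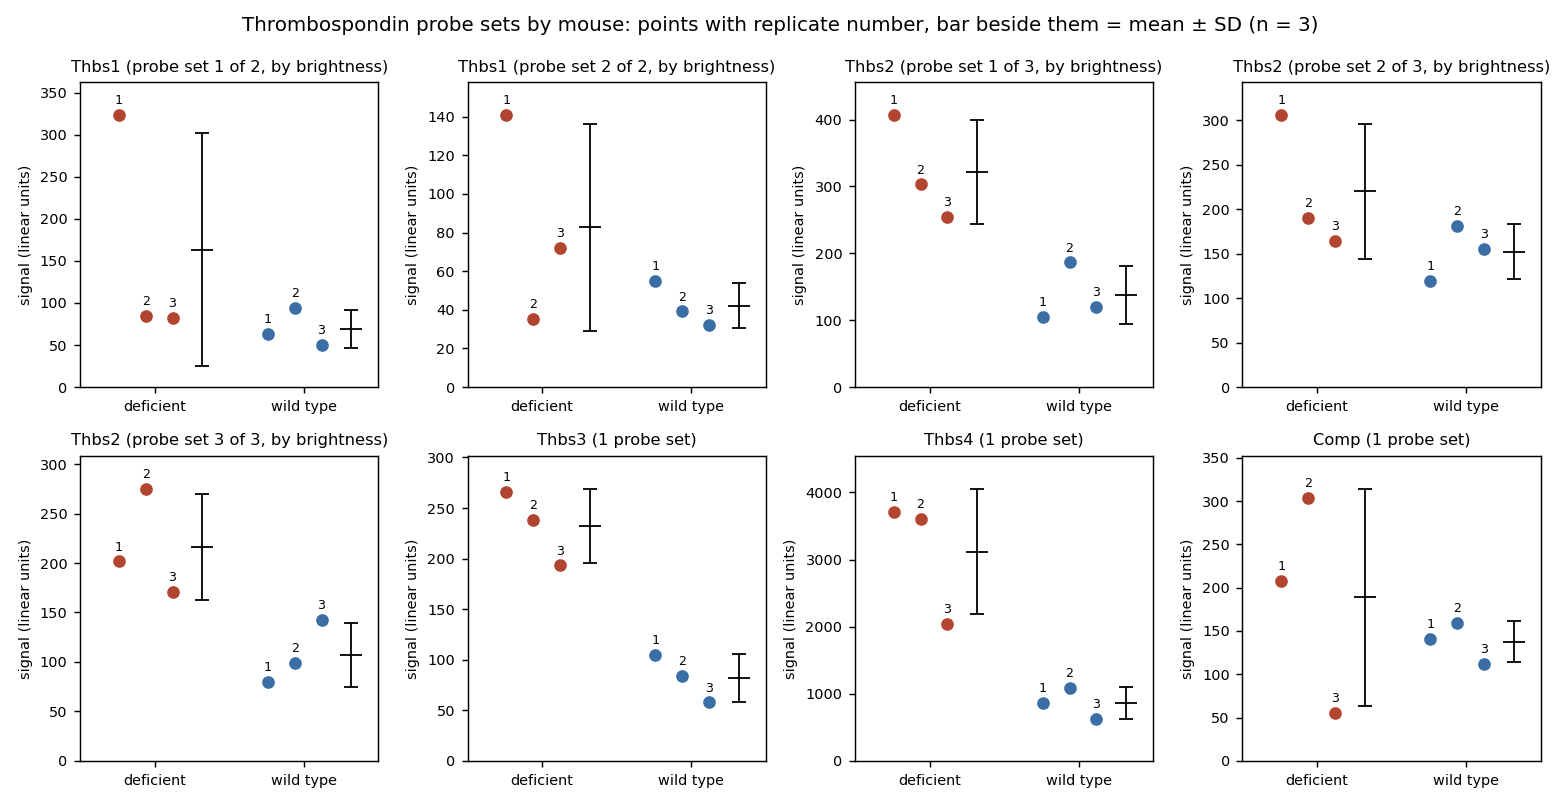
Signal of each thrombospondin probe set (y axis, linear units) in the 3 deficient and the 3 wild type mice, as points with the replicate number, and the mean ± SD beside them. The groups are apart for Thbs3 (193.3 to 266 against 57.8 to 105), Thbs4 (2040.2 to 3710.9 against 623.7 to 1089.5) and 2 of the 3 Thbs2 probe sets, while both Thbs1 probe sets are highest in deficient replicate 1 and Comp is low in deficient replicate 3.

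Among the genes of pentameric thrombospondins, Thbs4 read 3710.9, 3606.8 and 2040.2 in deficient muscle, against 869.5, 1089.5 and 623.7 in wild type muscle. Even the lowest deficient mouse, replicate 3, stood above the highest wild type mouse. The means were 3119 ± 936 in deficient and 861 ± 233 in wild type muscle (SD, n = 3 each), a log2 fold change of 1.82 (SE 0.27, 95% interval 1.22 to 2.43, limma adjusted p = 0.012). By size of the rise Thbs4 ranked 48th and by p-value 69th of 13104 genes. Within each group the mouse without Y-linked transcripts had the lowest Thbs4 signal, and the difference between the groups was 1.89 on the log2 scale among mice with these transcripts and 1.68 between the 2 mice without them. The call was lost without deficient replicate 2 (limma adjusted p = 0.0661) and without wild type replicate 1 (adjusted p = 0.0619), with log2 fold changes of 1.69 and 1.85.

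Thbs3, whose product is a pentameric matrix protein of developing bone and other tissues, read 266, 238 and 193.3 in deficient muscle, against 105, 83.7 and 57.8 in wild type muscle. Its deficient values were the least scattered of the family, with a coefficient of variation of 15.8% over deficient mice and 28.8% over wild type mice. The means were 232 ± 36.7 in deficient and 82.2 ± 23.6 in wild type muscle (SD, n = 3 each), and the log2 fold change was 1.36 (SE 0.23, 95% interval 0.84 to 1.88, limma adjusted p = 0.0197). The gene ranked 129th of 13104 by the size of its rise. Thbs3 was higher by 1.28 on the log2 scale among the mice with Y-linked transcripts and by 1.50 between those without. Its call was lost without deficient replicate 1 (limma adjusted p = 0.0619), deficient replicate 2 (0.0875) and wild type replicate 2 (0.0764).

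Comp, a gene of tendon and cartilage matrix, read 207.4, 303.9 and 55.4 in deficient muscle, against 140.7, 159.6 and 112.2 in wild type muscle. The deficient mice lay on both sides of the wild type range, with replicates 1 and 2 above it and replicate 3 below it. Their coefficient of variation was 66.3%, compared with 17.4% in wild type muscle. The log2 fold change was 0.18 (95% interval -0.86 to 1.21, limma adjusted p = 0.878), an interval that holds both a clear fall and a clear rise. Without deficient replicate 3 it was 0.81 (adjusted p = 0.0769), and without deficient replicates 1 or 2 it turned to -0.01 and -0.27 (adjusted p = 0.993 and 0.822). The difference was 0.69 among the mice with Y-linked transcripts and -0.84 between those without.

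**Figure D2:**
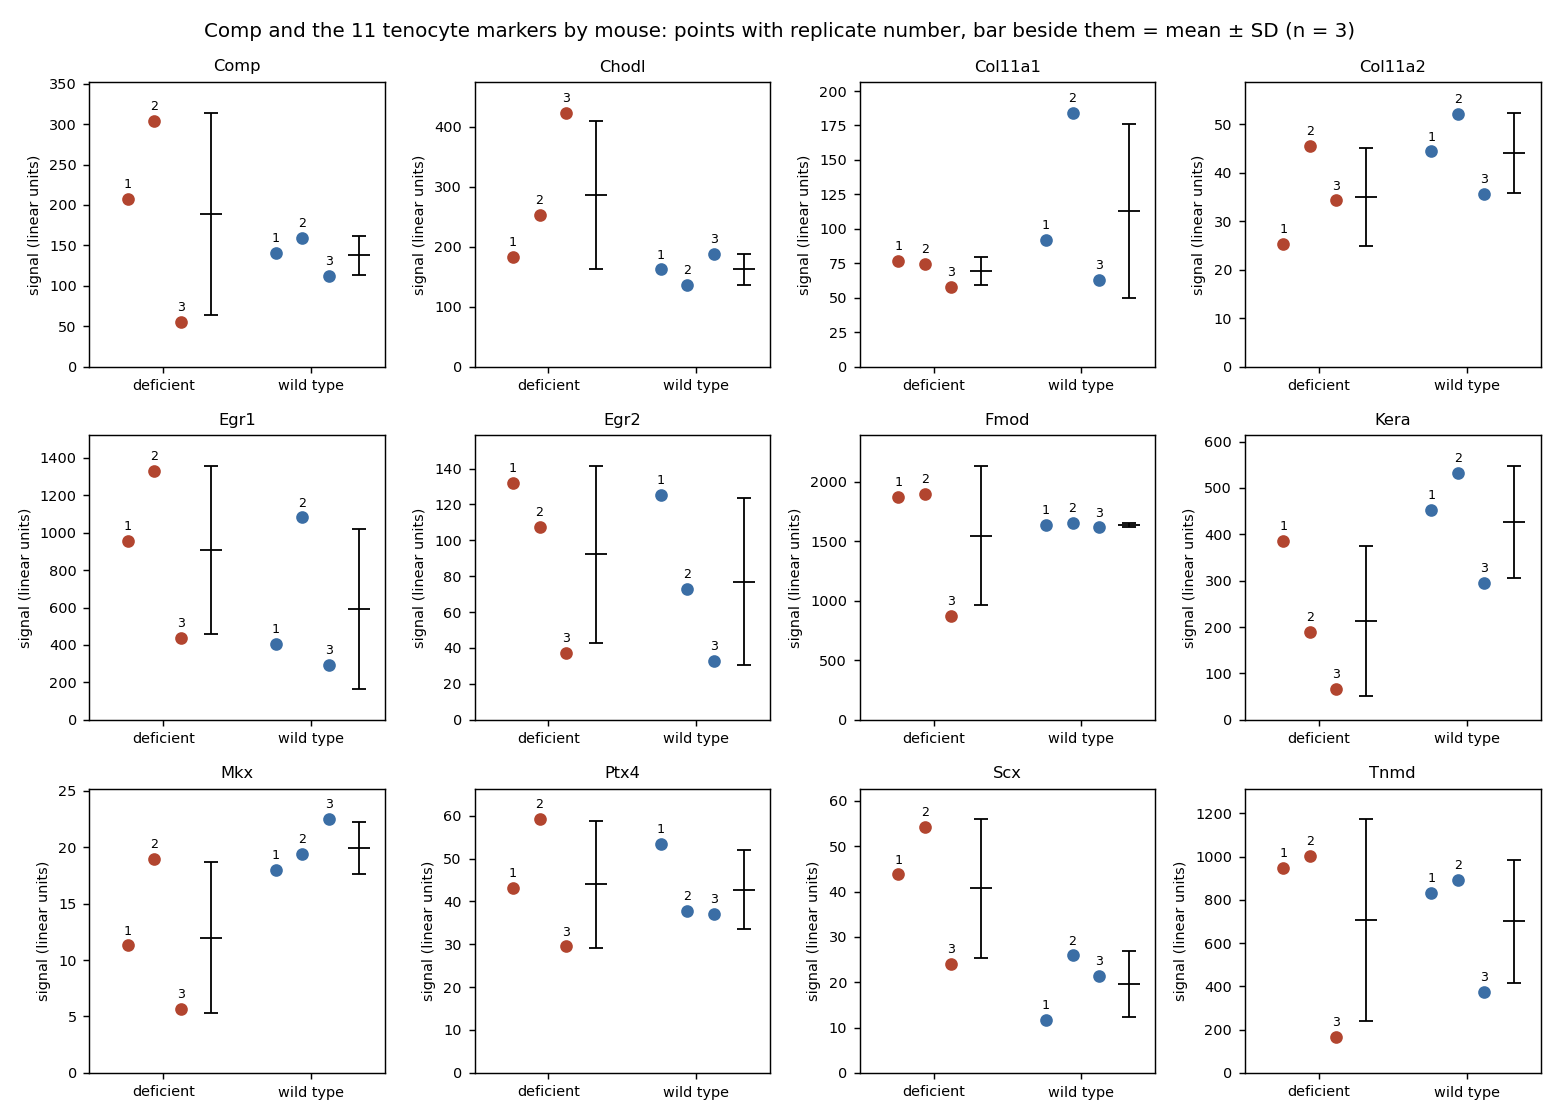
Signal (y axis, linear units) of Comp and of all 11 listed tenocyte markers in the 3 deficient and 3 wild type mice, as points with the replicate number, and the mean ± SD beside them. Deficient replicate 3 is the lowest mouse for Comp and for 6 of the 11 markers, and the highest for Chodl, at 423.1.

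Among the 11 listed tenocyte markers, deficient replicate 3 was the lowest of the 6 mice for 6 and the highest for 1, Chodl. Over all 13104 genes tested it was the lowest for 23.5%. The list's median log2 fold change was -0.16, and 5 of the 11 were positive. Tnmd, which encodes the tendon membrane protein tenomodulin, read 948.8, 1001.1 and 166.1 in deficient muscle, against 832.9, 892.4 and 375 in wild type muscle. Fmod, the gene of the collagen-binding proteoglycan fibromodulin, read 1872.5, 1899.7 and 872.4 in deficient muscle, against 1637, 1652.8 and 1616.1 in wild type muscle. Both were picked out after their values were seen, as 2 of the 6 in which deficient replicate 3 was the lowest. It was not the lowest for Scx, the gene of the tendon transcription factor scleraxis, with 43.8, 54.2 and 24.1 in deficient muscle, against 11.6, 25.9 and 21.3 in wild type muscle. The 11 markers summed to 4676.6, 5035.4 and 2154 in deficient and 3833.2, 4688.1 and 2979.8 in wild type muscle, and by limma 0 of them passed, with 3 at an unadjusted p under 0.05. Of 15 cartilage markers 9 were tested, of which 1 rose and 0 fell, with 5 at an unadjusted p under 0.05 by limma, a median of -0.48 and 3 of 9 positive. In 3 of the 9 every deficient value lay below every wild type value, and in 2, Prg4 and Sox9, every one lay above. The share of all genes that lay below in this way was not counted. The 3 below, Chad, Cnmd and Snorc, which were not called, had log2 fold changes of -1.18, -0.84 and -0.68 (limma adjusted p = 0.172, 0.213 and 0.211). Sox9, also not called, read 24.6, 30.7 and 50.3 in deficient muscle, against 1.9, 23.2 and 1.5 in wild type muscle (limma adjusted p = 0.145). Its wild type mean of 8.87 lay below the filter of 15, as did the deficient means of Cnmd (8.37) and Snorc (13.1). Sox9, Cnmd and Snorc thus passed the filter only through their higher group, which favours groups that lie apart. The defining cartilage genes Col2a1 and Acan read at most 35.1 in deficient and 142.4 in wild type muscle. The marker that rose was Prg4, the gene of the joint lubricant lubricin, with 660 ± 300 in deficient and 146 ± 77.2 in wild type muscle (SD, n = 3 each; limma adjusted p = 0.022), a call lost without 4 of the 6 arrays (0.06 without deficient replicate 1, 0.0839 without deficient replicate 2, 0.112 without wild type replicate 1 and 0.0921 without wild type replicate 2). What part the amount of tendon in each sample had in the Comp and Thbs4 values was not tested.

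Of the genes of trimeric thrombospondins, Thbs2, whose product regulates collagen fibril assembly and restrains vessel growth in mice, was read by 3 probe sets. The brightest read 406.8, 302.9 and 254.8 in deficient muscle, against 105.2, 186.3 and 119.9 in wild type muscle, with no overlap. The least bright read 201.6, 275.1 and 171 in deficient muscle, against 79.9, 99.1 and 142.4 in wild type muscle, also apart. The remaining probe set read 305.7, 189.9 and 164 in deficient muscle, against 119.6, 181.3 and 155.4 in wild type muscle, where 1 deficient mouse lay within the wild type range. The 3 probe sets thus had the same direction and different sizes of change, at 1.15, 0.92 and 0.46 on the log2 scale in the order given.

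For the gene, read by its brightest probe set, the means were 322 ± 77.7 in deficient and 137 ± 43.2 in wild type muscle (SD, n = 3 each; SE 0.25, 95% interval 0.59 to 1.72 on the log2 scale, limma adjusted p = 0.0458). This call sat just inside the threshold. It was lost when the probe sets were averaged (log2 fold change 0.84, limma adjusted p = 0.0829), under median centring (0.092) and quantile normalization (0.052), with no filter (0.0676), the most variable probe set (0.0647) or no intensity trend (0.0759). It was also lost without each array but deficient replicate 3 in turn: 0.115 and 0.144 for deficient replicates 1 and 2, and 0.17, 0.0629 and 0.118 for wild type replicates 1, 2 and 3. It held with Y-linked transcripts as a block (0.0123). The brightest probe set was higher by 1.23 among the mice with these transcripts and by 0.99 between those without. For the least bright these differences were 1.26 and 0.24, and for the remaining probe set 0.65 and 0.07. In a fit of all 27026 probe sets past the filter, 0.596% were called higher, and 2 of the family's 8 were, those of Thbs3 (limma adjusted p = 0.0293) and Thbs4 (0.0149). The adjusted p of the brightest Thbs2 probe set there was 0.0631, and it passed with the replicate block (0.0342), with the Y-linked block (0.0233) and without deficient replicate 3 (0.0388). The Thbs3 call in this fit was lost under median centring (limma adjusted p = 0.061), with no intensity trend (0.0644) and without each array but deficient replicate 3 in turn (0.0618 to 0.123). The Thbs4 call was lost with no intensity trend (0.0564), without deficient replicate 2 (0.0853) and without wild type replicate 1 (0.0662).

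Thbs1, the gene of the platelet and wound thrombospondin that activates latent TGF-beta, did not pass the test, and its probe sets differed in how many deficient mice stood above wild type. Its brighter probe set read 323.3, 84.6 and 82.4 in deficient muscle, against 63.5, 93.8 and 50.5 in wild type muscle. The other read 140.9, 35.1 and 72.2 in deficient muscle, against 55, 39.2 and 32.2 in wild type muscle. In both probe sets deficient replicate 1 was the highest of the 6 mice, and replicate 2 lay within the wild type range. Replicate 3 lay within that range in the brighter probe set and above it in the other. The log2 fold change was 0.84 (SE 0.44, 95% interval -0.14 to 1.83, limma adjusted p = 0.335), and 0.25 without deficient replicate 1 (adjusted p = 0.635). Of 12 platelet and megakaryocyte markers 10 were on the array and 8 were tested, with 0 called by limma, also 0 at an unadjusted p under 0.05, and they summed to 1416.6, 973.3 and 509.1 in deficient and 703.1, 662.8 and 533.3 in wild type muscle. Macrophage markers summed to 17645.2, 13158.7 and 6032.2 in deficient and 6200, 5137.7 and 4118.2 in wild type muscle. Deficient replicate 1 was the highest mouse for both sums. The platelet sum was mostly Pf4, a platelet chemokine gene, with 1227.4, 635.3 and 335.3 in deficient muscle, against 523.2, 377.1 and 306.5 in wild type muscle. Without Pf4, left out after its values were seen, the other 9 markers summed to 189.2, 338 and 173.8 in deficient and 179.9, 285.7 and 226.8 in wild type muscle, and deficient replicate 1 was not the highest. The part of macrophages in the Thbs1 signal was not tested.

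**Figure D3:**
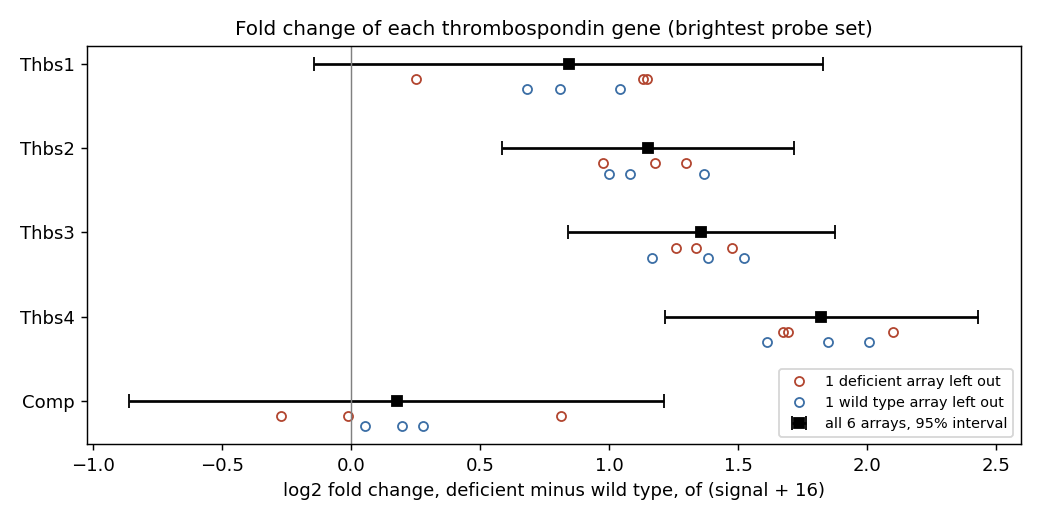
Log2 fold change of each thrombospondin gene, deficient minus wild type (x axis, of signal + 16), with its 95% interval over all 6 arrays as a black square and bar, and the value with each array left out as open circles. Thbs2, Thbs3 and Thbs4 stay at 0.98 or more in all such fits, Thbs1 drops to 0.25 without deficient replicate 1, and Comp lies on both sides of 0.

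The promoters of Thbs4, Thbs3 and Thbs2, the genes that rose, are shown. The promoter sequences at hand held no entry for Thbs1 and Comp, so members that did not pass could not be set beside them. Each is the 250 bases before the transcript start, 5′ to 3′ on the gene's strand, from RefSeq on GRCm38.p6. Capitals mark matches on either strand to the TATA box (TATAAA), the CCAAT box (CCAAT), the GC box (GGGCGG) or the MEF2 consensus, the binding motif of a muscle transcription factor.
Thbs4, chr13:92794819-92795068, minus strand: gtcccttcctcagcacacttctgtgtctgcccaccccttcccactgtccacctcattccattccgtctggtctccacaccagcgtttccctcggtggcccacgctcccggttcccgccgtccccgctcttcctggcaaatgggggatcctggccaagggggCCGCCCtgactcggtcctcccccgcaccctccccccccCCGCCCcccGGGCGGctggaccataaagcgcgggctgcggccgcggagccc
Thbs3, chr3:89214930-89215179, plus strand: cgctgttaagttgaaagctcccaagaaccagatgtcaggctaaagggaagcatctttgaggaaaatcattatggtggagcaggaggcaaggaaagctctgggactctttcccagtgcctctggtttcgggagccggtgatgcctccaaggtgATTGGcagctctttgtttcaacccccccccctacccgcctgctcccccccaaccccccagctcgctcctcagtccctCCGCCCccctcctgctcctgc
Thbs2, chr17:14694263-14694512, minus strand: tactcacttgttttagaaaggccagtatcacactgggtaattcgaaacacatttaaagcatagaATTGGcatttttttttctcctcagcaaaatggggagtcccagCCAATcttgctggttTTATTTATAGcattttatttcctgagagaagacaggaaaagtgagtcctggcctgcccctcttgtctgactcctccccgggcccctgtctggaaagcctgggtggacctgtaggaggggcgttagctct

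These windows differed in base composition and in the motifs they held. The Thbs4 window was 70.8% G and C and held 3 GC boxes and no CCAAT box. The Thbs3 window, at 58.8%, held 1 GC box and 1 CCAAT box. The Thbs2 window, at 46.8%, held 2 CCAAT boxes and a MEF2 match, within which lies a match to TATAAA. Over 32851 promoter windows of the same length the median was 52.4%, and 32.7% held a GC box, 33.8% a CCAAT box, 12.4% a TATA box and 2.92% a MEF2 match. Each of the 3 windows held 1 E-box (CANNTG), as 66.2% of all windows did, and none held AP-1 (TGANTCA, 6.75% of all windows) or the endoplasmic reticulum stress element bound by ATF6 (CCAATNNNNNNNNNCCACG, 0.113%). A match is a match of letters and shows no binding.

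Genes beside the family in the genome did not pass the test, as far as they were tested. The nearest protein-coding neighbour of Thbs3 on one side is Mtx1, which encodes a mitochondrial import protein and in mouse shares its promoter region with Thbs3. Mtx1 averaged 277 ± 35.3 in deficient and 320 ± 74.9 in wild type muscle (SD, n = 3 each; log2 fold change -0.19, limma adjusted p = 0.686). Serinc5 and Mtx3, which flank Thbs4, had log2 fold changes of 0.58 and 0.17 (limma adjusted p = 0.223 and 0.755), and Smoc2 beside Thbs2 had -0.15 (adjusted p = 0.697).

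Among receptors of thrombospondins, Lrp1, the endocytic receptor that clears thrombospondins and the proteases bound to them, rose. Lrp1 averaged 586 ± 57.7 in deficient and 310 ± 20.9 in wild type muscle (SD, n = 3 each; log2 fold change 0.88, limma adjusted p = 0.0323). Among 9 receptor genes, 1 rose and none fell, while 8 did not pass, with a median of 0.16. The best known receptors did not pass the test. Cd36 averaged 2351 ± 616 in deficient and 2308 ± 125 in wild type muscle (SD, n = 3 each; log2 fold change -0.01, limma adjusted p = 0.99), and Cd47 averaged 556 ± 237 in deficient and 473 ± 72.2 in wild type muscle (0.16, adjusted p = 0.81). Cacna2d1, the calcium channel subunit that binds thrombospondins at synapses, had a log2 fold change of -0.07 (adjusted p = 0.906). These 3 are named outside the rule for named genes. The Lrp1 call was lost without deficient replicates 1 and 2 (limma adjusted p = 0.0773 and 0.123) and each wild type replicate, from 1 to 3 (0.127, 0.121 and 0.0938), and under median centring (0.0716) and with no intensity trend (0.0622).

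Integrins are a further class of thrombospondin receptor, and by limma 0 of the 12 subunit genes tested passed, with 4 at an unadjusted p under 0.05 and a median of 0.32. The smallest p-values were those of Itga7, the laminin-binding subunit of muscle fibres, with 321 ± 36.9 in deficient and 182 ± 8.63 in wild type muscle (SD, n = 3 each; log2 fold change 0.76, limma adjusted p = 0.0572). Itga5, a fibronectin receptor subunit, followed with 89 ± 12.5 in deficient and 39.7 ± 13.6 in wild type muscle (0.94, adjusted p = 0.0689), and Itgav, which pairs to bind the RGD motif, with 811 ± 56.3 in deficient and 529 ± 35.8 in wild type muscle (0.60, adjusted p = 0.0843).

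**Figure D4:**
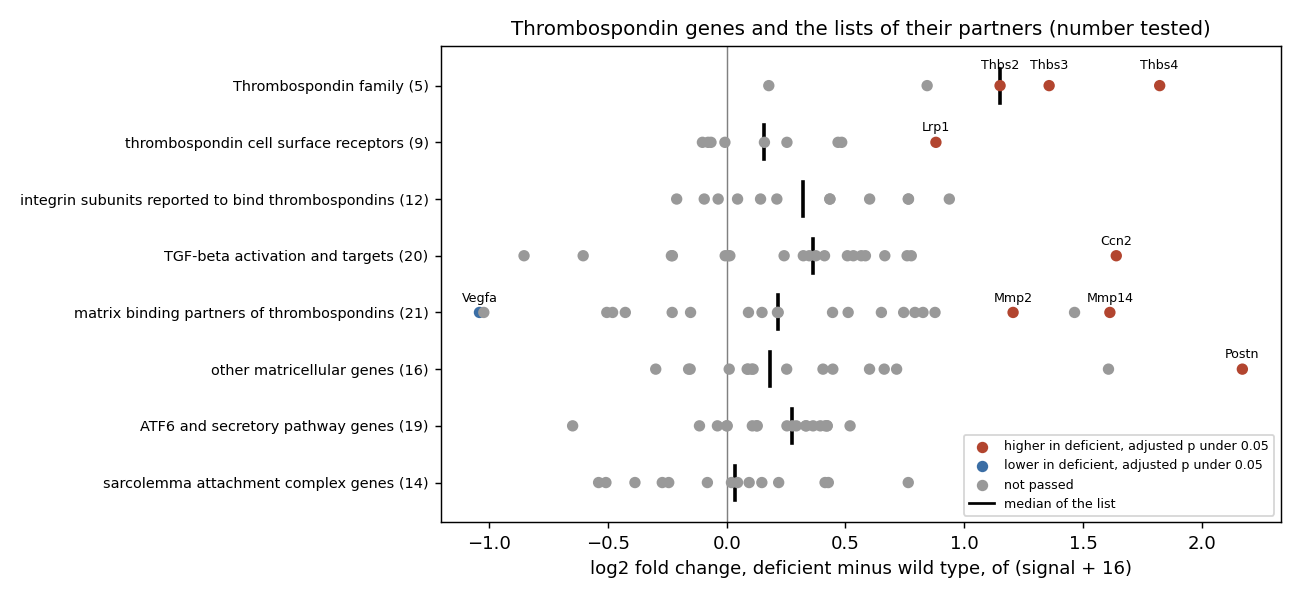
Log2 fold change, deficient minus wild type (x axis, of signal + 16), of each tested gene of the thrombospondin family and of 7 lists of receptors, partners and related genes, with the list's median as a black line. Red points rose, the blue point fell and grey points did not pass. The family's median is 1.15, and those of the other lists lie between 0.03 and 0.36. The housekeeping control list, not drawn, had a median of 0.26, within that span.

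Matrix partners of the family changed in both directions. Among 21 such genes 2 rose and 1 fell by limma, where 1.44% of all genes were called lower. In all, 10 had an unadjusted limma p under 0.05, and the median was 0.22. Mmp2, the gelatinase that thrombospondin-2 binds and delivers to Lrp1, averaged 1680 ± 147 in deficient and 732 ± 170.3 in wild type muscle (SD, n = 3 each; log2 fold change 1.21, limma adjusted p = 0.0196). Mmp14, the membrane protease that activates Mmp2, averaged 597 ± 14.6 in deficient and 199 ± 86.5 in wild type muscle (1.61, adjusted p = 0.0291). Vegfa, the vessel growth factor that thrombospondins bind, fell to 158 ± 38.6 in deficient muscle, against 339.5 ± 48.4 in wild type muscle (-1.04, adjusted p = 0.0383). The calls were lost with single arrays left out: Mmp2 without deficient replicate 2 (0.0875) and wild type replicates 1 (0.06) and 2 (0.0623), Mmp14 without deficient replicates 1 (0.0762) and 2 (0.108) and wild type replicates 1 (0.08) and 2 (0.0562), and Vegfa without deficient replicates 1 (0.0984) and 2 (0.145) and wild type replicates 1, 2 and 3 (0.145, 0.0942 and 0.109). Mmp14 was also not called by limma under median centring (adjusted p = 0.0508), with the mean of its probe sets (0.0523) and with no intensity trend (0.0578), and Vegfa with no filter (0.0522), the most variable probe set (0.0592) and no intensity trend (0.065).

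TGF-beta is the growth factor that thrombospondin-1 releases from its latent form. Of 20 genes of TGF-beta activation and response, 1 rose and none fell by limma, with 7 at an unadjusted p under 0.05. The median was 0.36, and 15 of the 20 fold changes were positive. In the housekeeping control list the median was 0.26, with 7 of 9 positive. The gene that rose was Ccn2, a TGF-beta target, at 832 ± 59.7 in deficient and 258 ± 42.3 in wild type muscle (SD, n = 3 each; log2 fold change 1.64, limma adjusted p = 0.0039), and it kept its call without each array in turn. The next smallest p-values were those of Tgfbr1 (log2 fold change 0.58, limma adjusted p = 0.0953), Smad3 (-0.60, 0.101) and Itgb6 (-0.85, 0.107), the last 2 lower in deficient muscle. Smad3 averaged 361 ± 23.7 in deficient and 559 ± 63.1 in wild type muscle, and Itgb6 27.9 ± 5.81 and 64.7 ± 22.1. Tgfb1 itself, named outside the rule, averaged 139 ± 37.7 in deficient and 74.6 ± 15.7 in wild type muscle (0.76, adjusted p = 0.126).

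Of 16 other matricellular genes, which like thrombospondins encode matrix proteins that signal more than they support, 1 rose, 0 fell and 15 did not pass, with a median of 0.18. The gene that rose was Postn, which encodes periostin, at 5893 ± 1606 in deficient and 1408 ± 750 in wild type muscle (SD, n = 3 each; log2 fold change 2.17, limma adjusted p = 0.0216), and its call was lost without deficient replicates 1 (0.0692) and 2 (0.0996) and wild type replicate 1 (0.0881). Tnc, the tenascin C gene, averaged 603 ± 411 in deficient and 148 ± 50.1 in wild type muscle (1.61, adjusted p = 0.173).

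Inside the cell, thrombospondin-4 is known in mice to bind the stress sensor ATF6 and to raise secretory pathway genes. By limma 0 of the 19 genes of that list passed, with 4 at an unadjusted p under 0.05 and a median of 0.28. Of the 19 fold changes 16 were positive, beside 7 of 9 in the housekeeping control list, whose median was 0.26. Herpud1, which had the smallest p of the list, went the other way. It averaged 494 ± 77 in deficient and 788 ± 169 in wild type muscle (SD, n = 3 each; log2 fold change -0.65, limma adjusted p = 0.13). Its values were 407.1 to 554.6 in deficient and 663.9 to 979.9 in wild type muscle. Hspa5, the chaperone BiP, averaged 2156 ± 427 in deficient and 1587 ± 161 in wild type muscle (SD, n = 3 each; log2 fold change 0.42, limma adjusted p = 0.249), and Atf6, named outside the rule, had a log2 fold change of 0.42 (adjusted p = 0.279). Likewise 0 of 14 sarcolemma attachment genes passed, with 4 at an unadjusted p under 0.05 and a median of 0.03. Of these 4, Itga7 and Utrn were higher in deficient muscle (log2 fold changes 0.76 and 0.43, limma adjusted p = 0.0572 and 0.23). The other genes, Sgca and Sgcb, were lower. Sgca, the alpha-sarcoglycan gene, averaged 844 ± 63.6 in deficient and 1231 ± 21 in wild type muscle (-0.54, adjusted p = 0.0946), and Sgcb had -0.51 (adjusted p = 0.189).

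The genes whose signal followed each member most closely over the 6 arrays were named by Pearson's r of log2(signal + 16), as a description in which the group difference is shared. For every member, choosing genes by r favours genes with the member's own order of mice. For Thbs4 they were Plscr2, Lgmn, Bicc1, Clec7a and Laptm5, with r of 0.993 to 0.995. Plscr2 was dim, at 15.6 to 24.5 in deficient and 7 to 11.5 in wild type muscle. It passed the filter of 15 only through deficient muscle. Lgmn, a lysosomal protease gene, read 926.7, 747.6 and 505 in deficient muscle, against 159.3, 232 and 128.5 in wild type muscle. Clec7a, a pattern receptor of macrophages, read 407.8, 344.5 and 161.9 in deficient muscle, against 47.3, 92.6 and 32.3 in wild type muscle. As in Thbs4, deficient replicate 3 was the lowest deficient and replicate 3 the lowest wild type mouse. For Thbs3 the nearest was Ccdc141 (r = 0.998), then Pcdh7, Nfkb2, Avpr1a and Ankfy1, and for Thbs2 it was Rgs2 (r = 0.998), a regulator of G-protein signalling, then Rin1, Itsn2, Manba and Rspry1. Rin1 also passed the filter only through deficient muscle, where it averaged 35, against 7.57 in wild type muscle.

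Rgs2 read 506.9, 374.2 and 329 in deficient muscle, against 136.4, 230.4 and 139.3 in wild type muscle. This is the same order of mice within each group as in the brightest Thbs2 probe set, by which Rgs2 was chosen. For Thbs1 the nearest genes were Idnk (r = 0.996), Iqgap2, Taf11, Rap1a and Gal, each highest in deficient replicate 1. For Comp they were Rps6 (r = 0.992), Commd7, Tnxb, Zfp219 and Lzic. Tnxb, the gene of the connective tissue protein tenascin-X, read 257.9, 364.6 and 54.4 in deficient muscle, against 180.3, 182.4 and 95.4 in wild type muscle, with deficient replicate 2 highest and deficient replicate 3 lowest as in Comp, an order that choosing genes by r favours.

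Markers of other cell types gave a mixed picture beside these values. Among 18 macrophage markers 2 rose and none fell by limma, with 13 at an unadjusted p under 0.05 and a median of 1.18. All 18 had a positive fold change, though the lowest deficient sum, 6032.2, lay below the highest wild type sum of 6200. Of 15 fibroblast markers 0 passed by limma, with 5 at an unadjusted p under 0.05, a median of 0.31 and summed signals of 40815.6 to 54977.7 in deficient and 34133.4 to 47069.2 in wild type muscle. Of 12 markers of satellite cells and regenerating fibres 4 rose by limma, 0 fell and 8 did not pass, with 8 at an unadjusted p under 0.05. Their median was 1.20, with sums of 2834.4 to 5636.9 in deficient and 620.2 to 1102.9 in wild type muscle. Of the 4 that rose, Mymx and Chrng averaged 11 and 8.57 in wild type muscle, below the filter of 15. They passed it only through deficient muscle, at 258 and 66.7. The part of these cell types in the thrombospondin values was not tested.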

How the data were processed

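The authors deposited a linear signal intensity for each of 45101 probe sets on each array. Its algorithm is not given in the sources used. All arrays share the same trimmed mean, so they were scaled before deposit. RNA came from TRIzol extraction with an RNeasy step, per the labels' protocols. Probe sets were named by the platform annotation, with symbols updated by Entrez identifier (34741 matched to RefSeq, GRCm38.p6). Of the probe sets 34945 had 1 gene symbol, 932 several, 9160 none and 64 were controls.

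Signals were taken as log2(signal + 16). Array medians differed by 0.226 on this scale, so arrays were not centred. A mean signal of at least 15, the 40th percentile, was required. The brightest probe set stood for a gene. The test was that of limma, version 3.58.1, in R 4.3.3 (intensity trend, two-sided, no block) and the Benjamini-Hochberg adjustment. On simulated data with 200 changed genes, the fit of 13104 genes found 45% of 2-fold and 98.4% of 4-fold changes, and 7.71% of calls were false. The members and gene lists were chosen with earlier results of these data known. Named genes were the 5 members, Lama2, up to 4 genes per list with the smallest p, not all of them printed, and the 5 genes nearest each member by correlation. Alternatives were other normalizations, filters, pseudocounts, probe set choices and priors, blocks for replicate number or Y-linked transcripts, and arrays left out. By limma, lists whose calls are not given above held 0 called genes (smooth muscle, endothelial, skeletal fibre and housekeeping, with 2, 1, 4 and 2 at an unadjusted p under 0.05) or 2 that fell (adipocyte, and keratinocyte with hair follicle). The adipocyte genes that fell were Ucp1, at 33.4 in deficient and 957 in wild type muscle (limma adjusted p = 0.00443), and Cidea, at 296 and 792 (0.0211). The other 8 tested did not pass. The keratinocyte genes that fell, Krt73 and Tchh, averaged 2.87 and 2 in deficient muscle and passed the filter only through wild type muscle.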

Additional observations from a re-analysis of the deposited data

How the results depend on the processing

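Of the 5 genes, Thbs1 and Comp passed under none of the alternatives run with a test, while Thbs3 and Thbs4 kept their calls under all but single arrays left out. Log2 fold changes with an array left out ran from 0.25 to 1.15 for Thbs1, 0.98 to 1.37 for Thbs2, 1.17 to 1.52 for Thbs3, 1.61 to 2.10 for Thbs4 and -0.27 to 0.81 for Comp. Thbs2 lost its call under median centring (1.11), quantile normalization (1.13), no filter (1.15), the mean of its probe sets (0.84), the most variable probe set (1.15) and no intensity trend (1.15). Without both wild type mice that carried hair keratins, only wild type replicate 3 was left in its group, and no test was run. Thbs3, Thbs4 and Thbs1 were then at 1.74, 2.24 and 1.17, for each the highest value of any alternative. No cause of these changes was tested.

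Of all genes 353 were called, 164 higher and 189 lower, and 381 probe sets. With no filter these were 216, 106, 110 and 223, with no intensity trend 159, 86, 73 and 76, and under median centring 99 were higher. With the replicate number as a block they were 855, 420, 435 and 957, and with Y-linked transcripts 1144, 542, 602 and 1258. Same-numbered mice had correlated deviations of 0.146, 0.067 and 0.298, and not each mouse correlated best with its own number. Whether same-numbered mice belong together was not tested. The block changed no call of a thrombospondin gene. With an array left out the counts ran from 64 to 665, 32 to 390, 26 to 275 and 48 to 677, and those over listed genes from 6 to 43 around 17. The 6 arrays limit what can be called.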
